A study of Mus musculus with 7 samples.

Results

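The thrombospondin genes Thbs1, Thbs2, Thbs3, Thbs4 and Comp were followed in mouse femurs after a brain injury. These 5 genes, of 49671 in the deposited count table, were identified by Ensembl gene. The family was chosen by a measured value, the p of Thbs3, which was the smallest of all 17144 genes tested between injured and uninjured mice, so their differences in that comparison are given as a description and not as a test. RNA came from femurs of wild-type mice. The TBI group (4 libraries) was taken 3 days after traumatic brain injury (TBI) by controlled cortical impact, a mechanical blow to the surface of the brain, and the control group (3 libraries) consisted of uninjured mice. No other allele or agent is named for either group. Strain, sex and age are not given in the labels, nor is it said whether the controls underwent the surgery without the impact, so surgery and impact cannot be told apart. The question of the study was the effect of brain injury on gene expression in bone.

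Thrombospondins are large secreted glycoproteins that bind calcium, other matrix proteins and cell surface receptors. Thrombospondins 1 and 2 assemble as trimers and carry the type 1 repeats that bind the receptor CD36, whereas thrombospondins 3 and 4 and COMP (cartilage oligomeric matrix protein, also called thrombospondin 5) assemble as pentamers and lack those repeats. In the skeleton, COMP organizes collagen in cartilage and tendon, and mutations of the human gene cause pseudoachondroplasia, a dwarfism. Mice without thrombospondin 3 show an early, passing acceleration of skeletal maturation, and thrombospondin 1 is stored in platelet granules.

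The libraries held 15461528 to 21783534 counts each, with 22360 to 23424 genes detected. Values are given as CPM, the counts of a gene per unit of library size, on the usual CPM scale, after scaling by the TMM method, unless a level per length (TPM) is named. A single count equals 0.0426 to 0.063 CPM. Replicates are numbered in the labels without a statement that they were separate mice, so errors and p-values measure the spread between these libraries. Defining markers of bone and cartilage were present in every library: Col1a1 (bone) measured 4946 to 6733 CPM in TBI libraries and 7203 to 12842 CPM in controls, and Acan (cartilage) 164 to 229 CPM in TBI libraries and 297 to 302 CPM in controls. The summed level of a list of 14 skeletal muscle genes was very uneven, from 23410 to 119054 CPM in TBI libraries and from 19926 to 65704 CPM in controls.

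Of the 5 genes, 4 were lower in the TBI femurs (Thbs2, Thbs3, Thbs4 and Comp), by log2 fold changes of −0.69 to −0.80, and Thbs1 was not. For Thbs2, Thbs3 and Comp every TBI library lay below every control, an arrangement found in this direction for 5.38% of all genes tested. Since the rule used this contrast, nothing is read from those counts. In edgeR's quasi-likelihood test, which fits all genes together, 0 genes passed an adjusted p of 0.05 (0% in either direction). The smallest adjusted p was 0.423. At an unadjusted p under 0.05 there were 852 lower genes (4.97%) and 407 higher genes (2.37%). Of the 15480 genes to which it gave an adjusted p, DESeq2 called 104 lower (0.672%) and 10 higher (0.0646%), and limma-voom called 0.

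**Figure D1:**
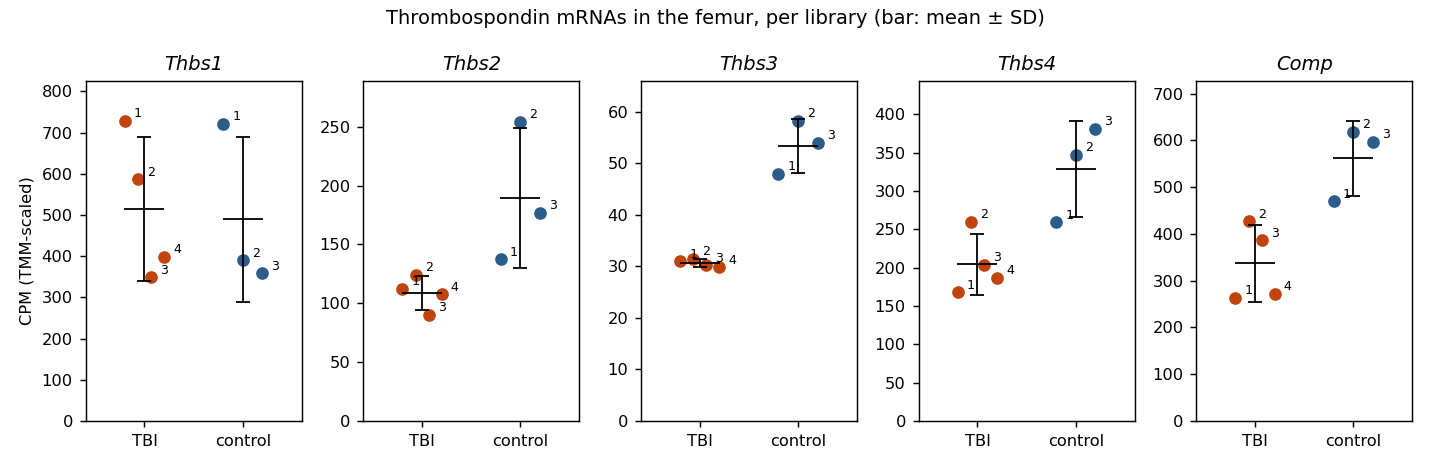
CPM (vertical axes, each starting at 0) of the 5 thrombospondin genes in each TBI and control library. Numbers give the replicate, and the black bars give the mean and SD of 4 TBI and 3 control libraries. The TBI values of Thbs3 lie between 29.8 and 31.5 CPM, below its controls at 47.9 to 58.2 CPM, while the groups overlap for Thbs1.

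Thbs3 (ENSMUSG00000028047, protein coding, GRCm38 chromosome 3, 89215180 to 89226837, plus strand) encodes a pentameric thrombospondin of cartilage, bone and other tissues. It had 31.0, 31.5, 30.2 and 29.8 CPM in TBI 1 to 4, against 47.9, 58.2 and 53.9 CPM in controls 1 to 3. All TBI libraries were lower than all controls, with a gap between the groups that was wider than the range within the TBI group. Choice by the smallest p favours such a gap, so nothing is read from it. The means were 30.6 ± 0.757 CPM after TBI (SD, n = 4) and 53.3 ± 5.15 CPM in controls (SD, n = 3), a log2 fold change of −0.80 ± 0.10 (SE), or 1.74-fold lower. The values by which it was chosen were an unadjusted p of 4.09e-05 and an adjusted p of 0.423 in edgeR. The next genes in that order were Gxylt2 and Col9a2, at 8.05e-05 and 8.88e-05. DESeq2 gave Thbs3 an adjusted p of 4.43e-06. That value comes from the same counts and contrast by which Thbs3 was chosen, so it is no separate evidence. Thbs3 was the sole member of the family that DESeq2 called, where it called 0.672% of genes lower.

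The rank of Thbs3 rested on a small spread as well as on the size of its difference, since it ranked 889 by absolute fold change. The coefficient of variation across the 4 TBI libraries was 2.47%, below the 3.97% that counting error alone would give at 557 to 739 counts. In controls it was 9.66%, at 923 to 1062 counts. Its SD within groups was 0.0932 on the log2 CPM scale, and 9.61% of the 2873 genes of like level (within 0.5 log2 units) had a smaller one, the median of those genes being 0.182. The small spread in the TBI group depended on the scaling of the libraries. Divided by total counts alone, Thbs3 stood at 33.4, 34.0, 27.2 and 25.9 CPM in TBI 1 to 4, against 51.4, 59.7 and 53.2 CPM in controls 1 to 3. The coefficient of variation was then 13.8% in the TBI group and 8% in controls, and the groups still did not overlap (log2 fold change −0.86 ± 0.15). Thbs3 was then at rank 2 by p.

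The 250 bases before the RefSeq transcript starts of Thbs3, Thbs2 and Thbs4 are shown because these genes were lower together and lie on different chromosomes. They were taken from RefSeq promoter sequences on GRCm38.p6, which held 3 of the 5 genes. They lie at chr3:89214930-89215179 (plus strand), chr17:14694263-14694512 (minus strand) and chr13:92794819-92795068 (minus strand), and are written 5′ to 3′. Capitals mark matches on either strand to the GC box (GGGCGG), the CCAAT box (CCAAT) and the TATA box (TATAAA).
Thbs3: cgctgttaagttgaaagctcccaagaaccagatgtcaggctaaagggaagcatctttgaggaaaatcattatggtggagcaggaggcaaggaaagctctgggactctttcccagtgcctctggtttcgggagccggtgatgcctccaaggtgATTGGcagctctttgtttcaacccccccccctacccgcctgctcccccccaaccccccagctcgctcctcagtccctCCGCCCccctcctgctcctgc
Thbs2: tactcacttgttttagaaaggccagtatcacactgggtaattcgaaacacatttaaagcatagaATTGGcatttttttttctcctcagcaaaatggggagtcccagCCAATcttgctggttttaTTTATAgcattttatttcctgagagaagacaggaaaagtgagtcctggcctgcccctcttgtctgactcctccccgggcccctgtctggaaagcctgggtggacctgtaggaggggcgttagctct
Thbs4: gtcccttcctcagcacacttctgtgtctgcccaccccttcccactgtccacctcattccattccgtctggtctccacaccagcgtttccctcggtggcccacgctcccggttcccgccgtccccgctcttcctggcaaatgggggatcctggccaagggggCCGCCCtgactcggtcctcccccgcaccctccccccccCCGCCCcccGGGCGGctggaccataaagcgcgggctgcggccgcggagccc
The Thbs3 sequence held a GC box beginning 21 bases before the start, counted to its leftmost base as printed, and a CCAAT box at 98 bases, both on the opposite strand. The Thbs2 sequence held CCAAT boxes at 186 and 144 bases and a TATA box match on the opposite strand at 126 bases, and Thbs4 held 3 GC boxes, at 89, 51 and 42 bases. Among 32851 mouse promoters of the same length, 32.7% held a GC box, 33.8% a CCAAT box and 12.4% a TATA box. The letters searched for a RUNX site (TGTGGT, in 14% of promoters) and an AP-1 site (TGANTCA, in 6.75%) were not in these windows. A SOX site (ACAANG, in 36.3%) matched in Thbs3 at 88 bases on the opposite strand, and an E-box (CANNTG, in 66.2%) matched at 222 bases in Thbs3, 246 bases in Thbs2 and 115 bases in Thbs4. The SOX and E-box matches are left in lower case. The GC content was 58.8% for Thbs3, 46.8% for Thbs2 and 70.8% for Thbs4, against a median of 52.4% over all promoters. No motif of those searched occurred in all of the 3 sequences other than the E-box.

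Thbs3 stands in a dense stretch of chromosome 3, and its neighbours had smaller estimated differences, none of which was tested against that of Thbs3. Of the 9 other protein-coding genes that lie within 50 kb, 7 had a lower estimate, where 45.6% of all genes tested did. In edgeR 0 of the 9 passed the adjusted threshold, as for all genes (0%). For Krtcap2 alone among them, a subunit of the oligosaccharyltransferase that N-glycosylates proteins, every TBI library lay below every control. Over all genes tested, 5.38% were separated in this direction, so nothing is read from that count. The log2 fold change of Krtcap2 was −0.24 ± 0.11 (SE). Mtx1, which encodes the mitochondrial import protein metaxin and is transcribed in the opposite direction, with RefSeq starts of the pair 1273 bases apart, measured 21.6 ± 1.97 CPM after TBI (SD, n = 4) and 23.5 ± 1.5 CPM in controls (SD, n = 3). Its log2 fold change was −0.12 ± 0.12. Scamp3, a membrane protein of the secretory pathway, stood at 0.13 ± 0.11. Muc1, an epithelial mucin, and Trim46 were at −0.47 ± 0.28 and −0.57 ± 0.31, at low levels of 1.25 to 3.11 and 1.79 to 5.48 CPM over the 7 libraries, and their groups overlapped. Fam189b, Dpm3 and Slc50a1 lay between −0.16 and −0.10. A short Mtx1 transcript in the annotation runs across the end of Thbs3 on the other strand and shares 318 bases with its exons (6.59% of the exon length of Thbs3). The library kit keeps strand, but no source used here gives the use of strand in counting, so reads from that stretch may have been counted for either gene.

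Comp (ENSMUSG00000031849, chromosome 8, 70373558 to 70382066, plus strand) had the highest level of the family per exon length. It had 263, 427, 386 and 272 CPM in TBI 1 to 4, against 470, 618 and 597 CPM in controls 1 to 3. TBI 1 and TBI 4 were lowest, and the groups did not overlap. The means were 337 ± 81.8 CPM after TBI (SD, n = 4) and 562 ± 80.3 CPM in controls (SD, n = 3), a log2 fold change of −0.74 ± 0.21 (SE).

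Thbs4 (ENSMUSG00000021702, chromosome 13, 92751590 to 92794818, minus strand) encodes a thrombospondin of tendon, muscle and nerve. It had 167.6, 259.7, 203.5 and 186.4 CPM in TBI 1 to 4, against 259.4, 347.2 and 380.9 CPM in controls 1 to 3. TBI 2 and control 1 were nearly equal, so the groups met at their edges, and the other TBI libraries lay below all controls. The log2 fold change was −0.69 ± 0.19 (SE), with means of 204 ± 39.8 CPM after TBI (SD, n = 4) and 329 ± 62.8 CPM in controls (SD, n = 3). The list of skeletal muscle genes was highest in TBI 3 and TBI 4, and Thbs4 in controls 2 and 3. From control 1 to control 3 the list rose in the same order as Thbs4, at 19926, 38674 and 65704 CPM. In the TBI libraries the order of the list differed from that of Thbs4. The part of attached muscle in the Thbs4 values was not tested.

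Thbs2 (ENSMUSG00000023885, chromosome 17, 14665500 to 14694235, minus strand) encodes a trimeric thrombospondin of connective tissue, and mice without it have abnormal collagen fibrils and denser bone. It had 112, 124, 90.3 and 108 CPM in TBI 1 to 4, against 137, 254 and 177 CPM in controls 1 to 3. All TBI libraries were lower than all controls, and control 2 stood well above the other controls. The means were 109 ± 14.1 CPM after TBI (SD, n = 4) and 190 ± 59.5 CPM in controls (SD, n = 3), a log2 fold change of −0.80 ± 0.21 (SE), which was −0.53 without control 2.

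Thbs1 (ENSMUSG00000040152, chromosome 2, 118111876 to 118127133, plus strand) encodes the thrombospondin released by activated platelets and made by many cell types. It had 728, 586, 349 and 399 CPM in TBI 1 to 4, against 720, 390 and 358 CPM in controls 1 to 3. TBI 1, TBI 2 and control 1 were high and the other 4 libraries low, so the groups overlapped over most of their range. The means were 515 ± 175 CPM after TBI (SD, n = 4) and 490 ± 201 CPM in controls (SD, n = 3), a log2 fold change of 0.07 ± 0.33 (SE). The estimate changed sign with single libraries: it was −0.13 without TBI 1, −0.06 without control 2 and −0.11 without control 3, and 0.46 without control 1. An antisense transcript, Gm29233, overlaps 208 bases of Thbs1 exons and measured 0.316 CPM or less in every library.

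**Figure D2:**
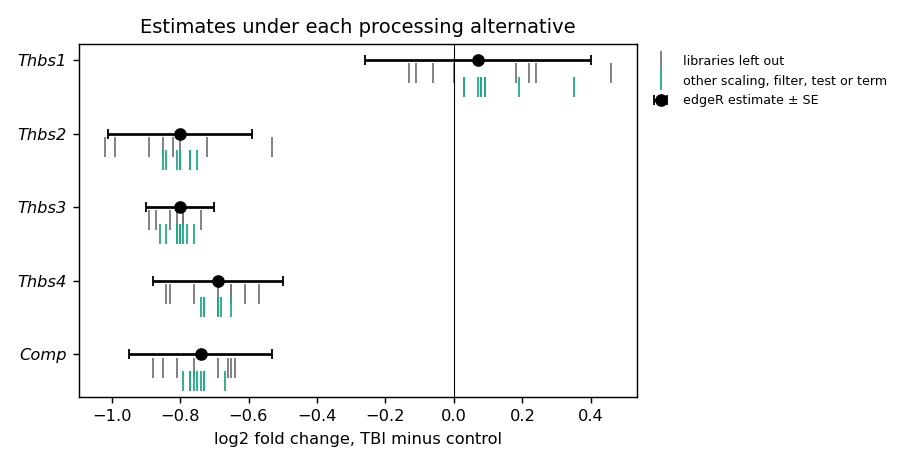
Log2 fold change, TBI minus control, of each gene: the edgeR estimate with its SE (black), the estimates with libraries left out (grey) and those with another scaling, filter, test or model term (green). The estimates of Thbs3 stay between −0.89 and −0.74 and those of Thbs2, Thbs4 and Comp stay below 0, while those of Thbs1 run from −0.13 to 0.46.

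The ratios among the 4 lower genes were alike in both groups. The mean log2 ratio of Thbs3 to Comp was −3.43 ± 0.339 after TBI (SD, n = 4) and −3.39 ± 0.0897 in controls (SD, n = 3). The ratio of Thbs3 to Thbs2 was −1.82 ± 0.17 after TBI and −1.79 ± 0.311 in controls, and that of Thbs4 to Comp −0.71 ± 0.159 after TBI and −0.78 ± 0.114 in controls. Each of these 3 differences was smaller than the SD within a group. The ratio of Thbs1 to Thbs3 was 4.01 ± 0.463 after TBI and 3.13 ± 0.676 in controls, with overlapping groups.

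Per exon length, Comp was highest in both groups and Thbs3 lowest. These levels are TPM-like values, counts per kilobase of exon scaled to the same sum in each library, without TMM scaling. Comp had 301 ± 85.9 TPM after TBI (SD, n = 4) and 516 ± 51.7 TPM in controls (SD, n = 3). Thbs1 had 232 ± 106 TPM after TBI and 225 ± 106 TPM in controls, and Thbs4 had 165 ± 43.2 TPM after TBI and 272 ± 37 TPM in controls. Thbs2 had 41.4 ± 9.82 TPM after TBI and 73.8 ± 21.9 TPM in controls, and Thbs3 had 16.8 ± 2.55 TPM after TBI and 30.2 ± 2.17 TPM in controls. In the TBI group Comp, Thbs1 and Thbs4 overlapped in range, in controls Thbs4 and Thbs1 did, and Thbs2 and Thbs3 were separate from each other and from the rest in both. Thbs3 thus made up 2.28% ± 0.296 of the summed TPM of the family after TBI (SD, n = 4) and 2.71% ± 0.125 in controls (SD, n = 3). The groups overlapped, with TBI 4 at 2.62% and control 1 at 2.58%. The share also depends on Thbs1, which made up 21.4% to 42.5% of the sum in TBI libraries and 14.3% to 30.8% in controls. With the longest transcript of every gene as its length in place of the union of exons, Thbs4 in controls was at 224.5 TPM in place of 272.3 TPM.

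**Figure D3:**
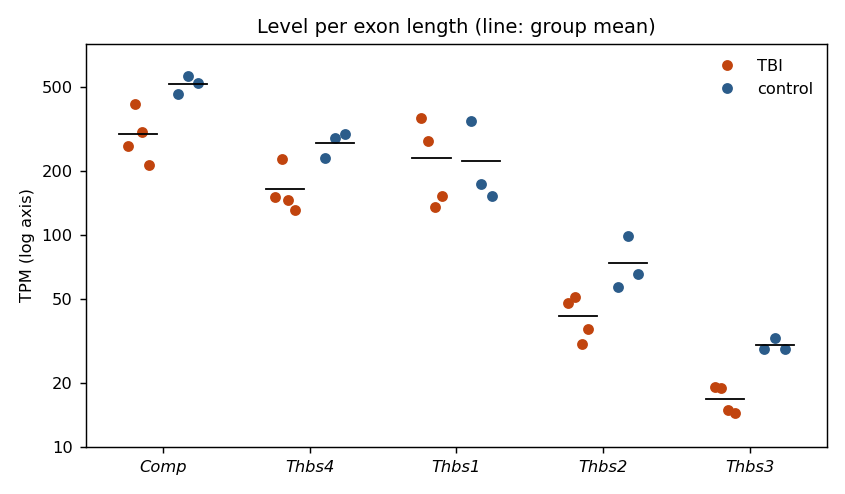
Level per exon length (TPM, log axis) of each thrombospondin gene in each TBI and control library, with a line at each group mean. Comp lies highest and Thbs3 lowest in both groups, at group means of 301 and 16.8 TPM after TBI and of 516 and 30.2 TPM in controls.

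The coding sequences of the 5 genes were alike at 63.9% to 71.8% of aligned bases, with the highest identity between Thbs4 and Comp and between Thbs3 and Comp (71.4%). They have 2265 coding bases in Comp, 2868 in Thbs3, 2889 in Thbs4, 3513 in Thbs1 and 3516 in Thbs2, the trimeric thrombospondins being the longer. No stretch of 50 bases was shared between the transcripts of any pair (0 in each of the 10 pairs), so reads of that length that match exactly belong to a single member. Thbs3 has 11 annotated transcripts, which the counts per gene do not separate.

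Among genes whose products bind thrombospondins, the matrix ligands had lower estimates and the receptors were mixed. Over 5 groups, 52 of 53 listed partner genes could be tested, and 0 passed the adjusted threshold in edgeR in either direction (0% of all genes). At an unadjusted p under 0.05 in edgeR, 20 were lower and 0 higher, where 4.97% of all genes tested were lower and 2.37% higher. Every TBI library lay below every control for 19 of the 52 and above every control for 2. Over all genes tested, 5.38% were separated below and 2.66% above, and the median log2 fold change was 0.03. DESeq2 called 5 of the 52, all lower (Col2a1, Col9a2, Col9a3, Acan and Mmp2), where it called 0.672% of genes lower.

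All 15 matrix ligands had a lower estimate, where 45.6% of all genes tested did, with log2 fold changes of −1.12 to −0.46 (median −0.66). In 12 of the 15 the TBI values were all under the control values. Col9a2, a chain of the collagen IX on cartilage fibrils, had 126.4, 98.2, 96.6 and 100 CPM in TBI 1 to 4, against 197.4, 196.4 and 193.8 CPM in controls 1 to 3. Its log2 fold change was −0.90 ± 0.13 (SE), and those of its partner chain Col9a3 and of Acan, the aggregating proteoglycan, were −0.66 ± 0.13 and −0.66 ± 0.15. Most of these ligands also stand on the cell type lists below, so the ligands and those lists are not separate observations. Col2a1, Col9a1, Col9a2, Col9a3, Matn1, Matn3 and Acan are on the chondrocyte list. Col1a1 and Col1a2 are on the osteoblast list, Col12a1 on the tendon list and Dcn on the fibroblast and periosteum list. Those beyond Col9a2, Col9a3 and Acan are named only for their place on a list.

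Among 14 receptors, 5 had a lower and 9 a higher estimate, with a median log2 fold change of 0.02, which was 0.09 without control 1, −0.02 with upper quartile scaling and −0.04 with total counts. Sdc4, a heparan sulfate proteoglycan that binds the amino-terminal domain, was at −0.38 ± 0.11 (SE), with 33.2 to 40.1 CPM in TBI libraries and 43.8 to 51.0 CPM in controls. Lrp1, the endocytic receptor that clears thrombospondins, was at −0.41 ± 0.15. For these genes every TBI library lay below every control, and for the other 12 the groups overlapped. Itga6, an integrin chain, was at 0.37 ± 0.20. The proteases had a median of −0.23 over 10 tested genes (Plg, the plasminogen gene, had too few counts to be tested). Without control 2 that median was −0.08. Mmp2, a gelatinase that thrombospondin 2 helps to clear, had 160, 203, 161 and 183 CPM in TBI 1 to 4, against 253, 374 and 333 CPM in controls 1 to 3. Its log2 fold change was −0.86 ± 0.17, and that of its activator Mmp14 was −0.56 ± 0.18, without overlap of the groups for either. The neutrophil protease Elane stood at 0.94 ± 0.44 with overlapping groups. The list of 10 neutrophil genes, Elane itself among them, summed to 2056 to 11803 CPM in TBI libraries and 2872 to 4641 CPM in controls. The part of neutrophils in the Elane value was not tested.

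Thrombospondin 1 can activate latent TGF-beta, and of the 9 genes of that system 6 were lower (median −0.23, and −0.09 without TBI 3). The receptor Tgfbr2 was at −0.35 ± 0.11 (SE) and the TGF-beta target Ccn2 at −0.46 ± 0.18, both without overlap of the groups, and Tgfb2 at −0.30 ± 0.20. The 4 enzymes that add sugars to thrombospondin repeats had a median of −0.10, which was −0.01 without TBI 4 and −0.16 without control 3. Dpy19l3, a C-mannosyltransferase, was at 0.39 ± 0.17, Pofut2, the O-fucosyltransferase, at −0.22 ± 0.11 and B3glct, which adds glucose to that fucose, at −0.19 ± 0.14.

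**Figure D4:**
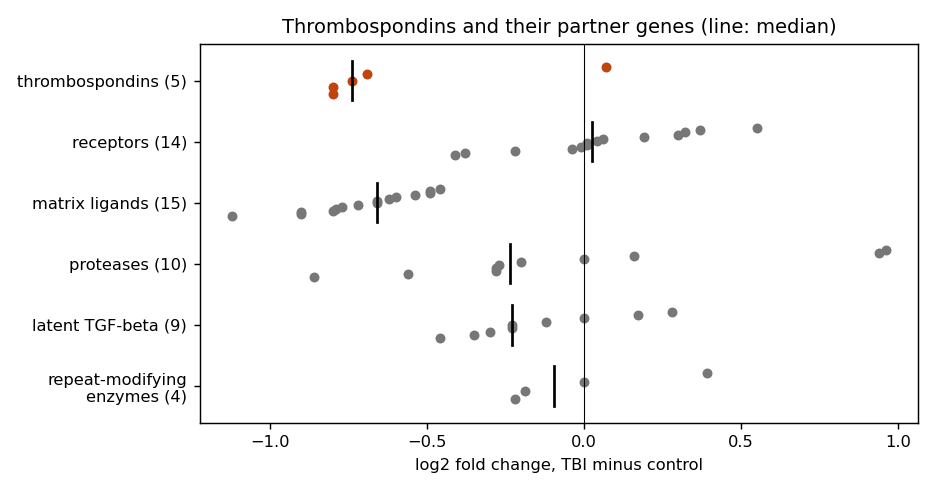
Log2 fold change, TBI minus control, of the 5 thrombospondin genes and of the tested genes in 5 partner groups, 1 point per gene, with a line at the median. The 15 matrix ligands lie between −1.12 and −0.46, and Thbs2, Thbs3, Thbs4 and Comp between −0.80 and −0.69, while the 14 receptors spread from −0.41 to 0.55.

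Levels in crushed bone follow both the number of cells of a type and the RNA per cell, and fewer cells of a type cannot be told apart from less RNA per cell. Lists of skeletal cell markers were lower together with Thbs2, Thbs3, Thbs4 and Comp, and so were the osteoclast, erythroid and B cell lists given further below. The chondrocyte list summed to 2693 to 3689 CPM in TBI libraries and 4299 to 5608 CPM in controls, with 17 of 18 genes lower (median −0.66 on the log2 scale). The osteoblast list summed to 11383 to 15876 CPM in TBI libraries and 17125 to 29398 CPM in controls (14 of 14 lower, median −0.72). The tendon list summed to 595 to 715 CPM in TBI libraries and 843 to 1336 CPM in controls (8 of 8 lower, median −0.69), and the fibroblast and periosteum list to 2650 to 2983 CPM in TBI libraries and 3911 to 5608 CPM in controls (9 of 10 lower, median −0.57). The osteocyte list had 9 of 9 lower (median −0.85), with overlapping sums of 87.1 to 190 CPM in TBI libraries and 148 to 232 CPM in controls. Endothelial genes summed to 331 to 484 CPM in TBI libraries and 332 to 420 CPM in controls (2 of 8 lower, median 0.04, which ran from −0.07 without TBI 3 to 0.14 without control 2 and was −0.04 with total counts). The tendon median was −0.45 without control 3.

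Thbs3 was also set against the lists themselves. Its log2 CPM minus the mean of the chondrocyte list was −0.65 ± 0.213 after TBI (SD, n = 4) and −0.52 ± 0.166 in controls (SD, n = 3), with overlapping groups. Against the osteoblast list the values were −1.96 ± 0.133 after TBI and −1.86 ± 0.347 in controls, also overlapping. Against the fibroblast and periosteum list Thbs3 stood at −2.14, −2.24, −2.20 and −2.35 in TBI 1 to 4 and at −1.87, −1.86 and −1.88 in controls 1 to 3, without overlap. Thbs3 was chosen by these same values, so nothing is read from that separation. The group means there differed by −0.36 for Thbs3. They differed by −0.33 for Thbs2, −0.26 for Thbs4, −0.32 for Comp and 0.52 for Thbs1, with overlapping groups. Comp against the chondrocyte list was at 2.77 ± 0.55 after TBI and 2.87 ± 0.254 in controls, and Thbs4 against the tendon list at 3.09 ± 0.177 after TBI and 3.21 ± 0.0835 in controls. The part of these cell types in the lower levels was not tested.

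Thbs1 was high in the libraries in which the markers of platelets were high. The list of 10 megakaryocyte and platelet genes, with Pf4 and Ppbp among them, summed to 2486, 2625, 1566 and 1523 CPM in TBI 1 to 4, against 2287, 1267 and 1197 CPM in controls 1 to 3. TBI 1, TBI 2 and control 1, the libraries with the highest Thbs1, were also the highest here. The log2 CPM of Thbs1 minus the mean of that list was 2.09, 1.67, 1.71 and 1.90 in TBI 1 to 4 and 2.18, 2.16 and 2.08 in controls 1 to 3. All 10 genes of the list had a higher estimate after TBI (median 0.36, 0 called in edgeR or DESeq2, 0 at an unadjusted p under 0.05). That median was 0.72 without control 1 and 0.22 without TBI 2 or without control 3. TBI 1, TBI 2 and control 1 also ranked together on other lists. They were lowest for skeletal muscle genes, at 23410, 36862 and 19926 CPM, against 38674 CPM or more elsewhere. TBI 2 lay close to control 2 (38674 CPM) there, so no clear gap set them apart. For endothelial genes they were also lowest, at 331, 351 and 332 CPM, against 402 CPM or more elsewhere. Their TMM scaling factors were the highest (1.08, 1.08 and 1.07). The part of platelets in the Thbs1 values was not tested. The platelet integrin chain Itgb3, a thrombospondin receptor, had 608, 538, 311 and 344 CPM in TBI 1 to 4, against 553, 264 and 267 CPM in controls 1 to 3; it was named after its values were seen.

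**Figure D5:**
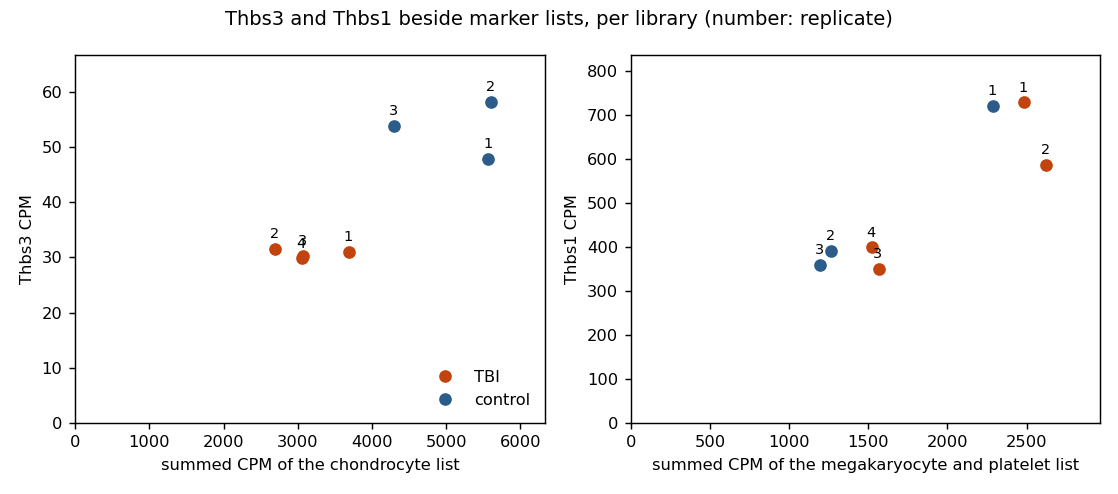
CPM of Thbs3 against the summed CPM of the chondrocyte list (left) and of Thbs1 against that of the megakaryocyte and platelet list (right), 1 point per TBI or control library, numbered by replicate. TBI libraries lie below controls on both axes on the left, with Thbs3 at 29.8 to 31.5 CPM, and on the right TBI 1, TBI 2 and control 1 lie apart from the other 4 libraries.

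The remaining lists mark other cells of bone, marrow and attached muscle. Osteoclast genes had a median log2 fold change of −0.51 (7 of 9 lower), erythroid genes −0.67 (9 of 9 lower) and B cell genes −0.75 (8 of 8 lower). The erythroid list summed to 23139 to 32518 CPM in TBI libraries and 44719 to 51397 CPM in controls, without overlap. The sums of the osteoclast and B cell lists overlapped. Neutrophil genes had a median of 0.98 (0 of 10 lower), skeletal muscle genes 0.69 (0 of 14 lower), marrow stroma and adipocyte genes 0.45 (1 of 9 lower) and macrophage genes 0.09 (3 of 9 lower). Single libraries moved several of these medians. That of skeletal muscle was 0.26 without TBI 4, 0.37 without control 1 and 1.15 without control 3. With the muscle covariate it was 0.04, but that covariate is the mean log2 CPM of this same list. A value near 0 was therefore fixed in advance, and nothing is read from it. The neutrophil median was 0.61 without TBI 1, that of B cells −0.44 without TBI 3, and that of macrophages −0.13 without TBI 1 and 0.18 without control 1. In edgeR 0 genes on the 14 cell type lists passed the adjusted threshold. DESeq2 called 7 chondrocyte, 5 osteoblast, 5 erythroid, 4 fibroblast and periosteum, 1 osteocyte and 1 tendon gene, all lower, and 0 on the other lists. Over all genes to which it gave an adjusted p, DESeq2 called 0.672% lower. Of the chondrocyte genes called, Col2a1, Col9a2, Col9a3 and Acan are also among the partner genes called above, so those calls are not separate.

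The genes most like Thbs3 over the 7 libraries were looked for among 11443 protein-coding genes of at least 5 CPM, by Pearson's r of log2 CPM, a description in which the libraries share their scaling. They were Cpq (r = 0.994), a plasma carboxypeptidase, the scavenger receptor Colec12 (0.992), the platelet-derived growth factor receptor Pdgfra of mesenchymal cells (0.991), Zfp9 (0.991) and Ptgfrn (0.982). Colec12 measured 47.0 ± 1.35 CPM after TBI (SD, n = 4) and 72.4 ± 7.49 CPM in controls (SD, n = 3), and Pdgfra 46.1 ± 1.92 CPM after TBI and 66.2 ± 3.87 CPM in controls. Within the family, Thbs2 ranked 178 (0.903), Thbs4 253 (0.876), Comp 284 (0.866) and Thbs1 6415 (−0.171). Since these values hold the difference between the groups, r was also taken over the deviations from the group means, where Serhl (0.983), Zfand1 (0.98), Tspan31 (0.964), Sra1 (0.961) and Gnb4 (0.958) came highest and Thbs2 ranked 35 (0.919). None of the earlier 5 genes was among these. Of the later 5 only Gnb4 had every TBI library below every control, at 17.7 ± 0.596 CPM after TBI and 22.8 ± 2.2 CPM in controls. The log2 CPM of Thbs3 had an SD of 0.0356 in the TBI group and 0.141 in controls. The r over deviations therefore rests mostly on the control libraries.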

How the data were processed

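Stranded mRNA libraries were made from femurs crushed in Trizol, per the labels' protocols. The authors deposited raw counts per Ensembl gene for 7 libraries, and a table of log2 values that the authors normalized, which entered here only as an alternative. STAR, DESeq and GRCm38 are named in the submitters' processing notes, and no source used here names the counter. Genes were matched to GENCODE M21 (49326 of 49671). Counts were filtered with filterByExpr (17144 genes), scaled by TMM and fitted with edgeR 4.0.16 (quasi-likelihood, Benjamini-Hochberg over all genes, threshold 0.05) in R 4.3.3. The procedure was tested on simulated data. DESeq2 1.42.0 (no adjusted p for 1664 genes), limma-voom 3.58.1, RLE, upper quartile, other filters, a replicate block, a muscle covariate and each library left out were alternatives. Total counts without a scaling factor, TBI 1 and control 1 left out together, and the deposited log2 values were added after seeing the data. The genes, lists and tests were chosen with earlier results of these data known. Named partners are the 3 with the smallest p in each group, and genes outside that rule are said to be so. The comparison of proteins was not made, as no protein table was used here. Coding sequences were aligned globally with Biopython 1.88. Replicates differed by more than sampling noise (chi-square per degree of freedom 27.2 or more). The values of a neighbouring gene of Thbs3 are not reported here.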

Additional observations from a re-analysis of the deposited data

Results flagged for a closer look

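In the group of 4 TBI libraries, 48 values were examined for a library far from the others by Dixon's criterion, and 2 stood out, about the number that chance gives at 1 in 20. Col9a2 was at 126.4 CPM in TBI 1, against 96.6 to 100 CPM in the other TBI libraries, and this library still lay below all controls. The 4 genes of the repeat-modifying enzymes summed to 116.1 CPM in TBI 4, against 140 to 143.1 CPM in the other TBI libraries. No thrombospondin gene was among them.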

How the results depend on the processing

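Of 645 values recomputed under an alternative, 642 stayed within the spread between replicates or, for counts of genes, within 1.5 times. No value was called by edgeR, so none could lose a call, and the uncalled estimate of Thbs1 changed sign, as did the medians of the receptors, the endothelial genes and the macrophage genes. With DESeq2, 114 genes passed in place of 0, and 5 partner genes in place of 0; the cause was not tested. Without each library in turn both counts stayed at 0. The fold change then ranged from −0.13 to 0.46 for Thbs1, −0.99 to −0.53 for Thbs2, −0.87 to −0.74 for Thbs3, −0.84 to −0.57 for Thbs4 and −0.88 to −0.64 for Comp. The muscle covariate put Thbs1 at 0.35 and Thbs3 at −0.81. The deposited log2 values put Thbs3 at −0.76. With the replicate block 0 genes passed, Thbs3 was at −0.78 (rank 12 by p) and Thbs1 at 0.19. Libraries of the same number deviated together with r = 0.526, −0.0236 and 0.305 for numbers 1 to 3, so the numbers were not taken as pairs, and TBI 2 correlated best with control 1. Without TBI 1 and control 1, Thbs3 was at −0.89 and Thbs2 at −1.02. Counting error is small beside the spread for all members except Thbs3, and 4 against 3 libraries limit the precision.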
